A study of Mus musculus with 2 samples.

Results

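Glycolysis and hypoxia target genes were examined in mouse T cells that lack Malat1, an abundant nuclear long non-coding RNA. The genes were taken by name from the deposited comparison table: glucose and lactate transporters, glycolytic enzymes step by step, and targets of the hypoxia-inducible factor HIF-1. The 32 names gave 31 of the 16385 genes in the table, because Ero1a and Ero1l name the same gene. They comprise 3 transporters, 14 glycolytic enzymes and 14 HIF targets. Aldoa has a second row under another identifier, which starts 38 bases beyond the first, holds 17 and 20 counts in the knockout replicates and is left out of the counts of genes.

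The data are ribosome-depleted RNA-seq libraries of 1 group, Malat1 knockout Th17 cells, in 2 biological replicates on the C57BL/6 background. Naïve CD4+ T cells were kept for 72 h with antibodies to CD3ε (0.25 µg/mL) and CD28 (1 µg/mL), IL-6 at 20 ng/mL and TGF-β at 0.1 ng/mL, the cytokine mix that turns them into Th17 cells, a class of helper T cell known for secreting IL-17. How the knockout allele was made is not given in the sources used here, and replicate 2 is called a Malat1 knockout in its title but Malat2 in another label. The wild-type Th17 libraries behind the deposited fold changes belong to another series, so genotype and series cannot be told apart, and their individual values are not used here. Malat1 itself is not analysed here.

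Replicate 1 of the knockout had 21554852 counts over 14269 detected genes, and replicate 2 had 26916169 over 14493. T cell markers were abundant: the T cell receptor component Cd3e had 3275 and 3407 normalized counts, Cd4 had 14511 and 13921, and Il17f, a Th17 cytokine, had 63523 and 60211. Summed markers of other cells were 8.71 and 7.59 normalized counts over 5 B cell genes, 61.9 and 70.6 over 9 myeloid genes, 5.80 and 9.11 over 6 erythroid genes, and 280 and 288 over 2 CD8 T cell genes, nearly all from Cd8b1. Normalized counts are raw counts divided by the authors' size factor of the library. The implied wild-type mean is what the authors' mean over all 4 libraries of their fit leaves for the wild-type pair once both knockout values are taken out, and it carries no spread.

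Glycolysis splits glucose into pyruvate. Its first steps spend ATP to make hexose phosphates that are cut into trioses, and its later steps recover ATP and make NADH, which lactate dehydrogenase oxidizes back as it turns pyruvate into lactate. HIF-1, a pair of Hif1a with Arnt, binds short DNA elements near many of these genes. Prolyl hydroxylases mark Hif1a for destruction by Vhl when oxygen is present. Activated T cells raise glycolysis even in oxygen, and Hif1a is known to favour Th17 over regulatory T cells in mice.

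The DNA just before the starts of these genes was read for the HIF core, the letters ACGTG or GCGTG on either strand, in RefSeq windows (GRCm38.p6) that run from 250 bases before a start to 50 bases after it. Of the 31 genes, 29 had a window, and Slc2a3 and Ndrg1 are named only. The stretches below are the 250 bases before the start, read 5′ to 3′ along the gene, and capitals mark each match of either core or of its reverse complement. They show genes of each role whose windows hold 2 or more ACGTG matches, of which 1 in P4ha2 lies after the start and is not printed. The 2 of Bnip3 come from 1 CACGTG, which reads the same on both strands and is counted on each. Eno1, which holds only GCGTG, is set beside them. Ldha and Eno1 have further windows that are not printed. Those of Eno1 overlap and hold the same 2 GCGTG matches, 86 and 62 bases before 1 start and 113 and 89 bases before the other. Slc16a3 exports lactate, Hk2 traps glucose as its phosphate, Ldha makes lactate, Pgk1 makes ATP, Bnip3 marks mitochondria for removal, P4ha2 hydroxylates collagen, Ankrd37 is an ankyrin repeat protein and Eno1 is enolase.
Slc16a3 (chr11:120948817-120949066, plus strand): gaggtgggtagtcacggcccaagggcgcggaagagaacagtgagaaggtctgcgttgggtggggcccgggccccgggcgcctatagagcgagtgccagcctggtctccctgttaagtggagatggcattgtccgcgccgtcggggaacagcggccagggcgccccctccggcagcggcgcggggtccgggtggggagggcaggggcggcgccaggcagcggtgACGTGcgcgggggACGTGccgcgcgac
Hk2 (chr6:82774455-82774704, minus strand): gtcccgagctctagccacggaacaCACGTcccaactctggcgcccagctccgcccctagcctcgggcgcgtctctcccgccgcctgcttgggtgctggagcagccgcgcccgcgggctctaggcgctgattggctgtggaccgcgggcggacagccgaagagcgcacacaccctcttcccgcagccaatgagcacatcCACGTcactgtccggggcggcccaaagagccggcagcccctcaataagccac
Ldha (chr7:46845554-46845803, plus strand): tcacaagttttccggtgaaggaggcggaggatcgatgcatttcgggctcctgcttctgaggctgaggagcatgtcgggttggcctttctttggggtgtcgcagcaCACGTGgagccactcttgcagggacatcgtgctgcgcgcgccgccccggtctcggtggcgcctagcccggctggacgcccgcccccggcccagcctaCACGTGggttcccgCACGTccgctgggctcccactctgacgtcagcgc
Pgk1 (chrX:106186850-106187099, plus strand): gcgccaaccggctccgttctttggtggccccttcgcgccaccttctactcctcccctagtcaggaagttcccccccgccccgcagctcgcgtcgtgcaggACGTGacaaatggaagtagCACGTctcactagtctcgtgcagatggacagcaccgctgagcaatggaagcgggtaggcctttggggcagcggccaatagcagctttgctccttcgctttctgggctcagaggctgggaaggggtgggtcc
Bnip3 (chr7:138909507-138909756, minus strand): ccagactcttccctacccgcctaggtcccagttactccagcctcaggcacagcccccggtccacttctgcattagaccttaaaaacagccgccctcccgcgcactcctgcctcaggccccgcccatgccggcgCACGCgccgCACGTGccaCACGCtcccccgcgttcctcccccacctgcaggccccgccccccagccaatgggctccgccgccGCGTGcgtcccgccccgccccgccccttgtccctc
P4ha2 (chr11:54100674-54100923, plus strand): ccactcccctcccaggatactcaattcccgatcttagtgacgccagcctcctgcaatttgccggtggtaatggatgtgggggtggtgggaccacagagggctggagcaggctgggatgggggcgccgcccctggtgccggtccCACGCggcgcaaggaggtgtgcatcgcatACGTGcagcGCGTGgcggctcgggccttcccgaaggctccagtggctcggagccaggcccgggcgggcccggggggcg
Ankrd37 (chr8:45999851-46000100, minus strand): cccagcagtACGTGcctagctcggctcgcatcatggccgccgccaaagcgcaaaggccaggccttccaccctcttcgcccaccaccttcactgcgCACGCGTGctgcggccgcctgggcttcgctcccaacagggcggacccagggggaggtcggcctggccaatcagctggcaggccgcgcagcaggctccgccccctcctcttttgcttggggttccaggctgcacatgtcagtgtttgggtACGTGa
Eno1 (chr4:150236458-150236707, plus strand): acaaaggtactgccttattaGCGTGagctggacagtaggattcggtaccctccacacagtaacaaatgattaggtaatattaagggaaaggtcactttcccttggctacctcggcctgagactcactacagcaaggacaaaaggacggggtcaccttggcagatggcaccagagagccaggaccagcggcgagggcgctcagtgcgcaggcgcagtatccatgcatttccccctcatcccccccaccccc

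Ldha had the most ACGTG matches, 5. Of these, 4 come from a pair of CACGTG palindromes, which read the same on both strands and so count on each; they begin 145 and 48 bases before the start. Over all windows of a gene, ACGTG was found in 22 of 29 genes (75.9%): in 11 of 13 HIF targets (84.6%) and in 9 of 14 glycolytic enzymes (64.3%). The share was 42.0% of 100 other genes of glucose metabolism and the HIF pathway, 32.0% of 5736 protein-coding genes with a mean of at least 500 normalized counts, and 21.8% of all 27025 genes with a window. Either core was found in 27 of the 29 genes (93.1%), against 71.5% of the 5736 genes. Windows of these genes had a median of 23 CG dinucleotides against 22 in the 5736 genes, and a median GC content of 65.0% against 61.7%. Those of the HIF targets alone had a median of 25 CG dinucleotides and 69.0% GC, and the part of base composition in their share was not tested. Of 9 T cell markers with a window, 5 (55.6%) held ACGTG. A match is a run of letters and not a measured binding site. The 7 genes without ACGTG in any window were Gpi1, Pfkl, Pfkp, Tpi1, Eno1, Pdk1 and Kdm3a. In the authors' deposited table the median log2 fold change was 0.14 for the 22 genes with ACGTG and 0.12 for these 7.

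**Figure D1:**
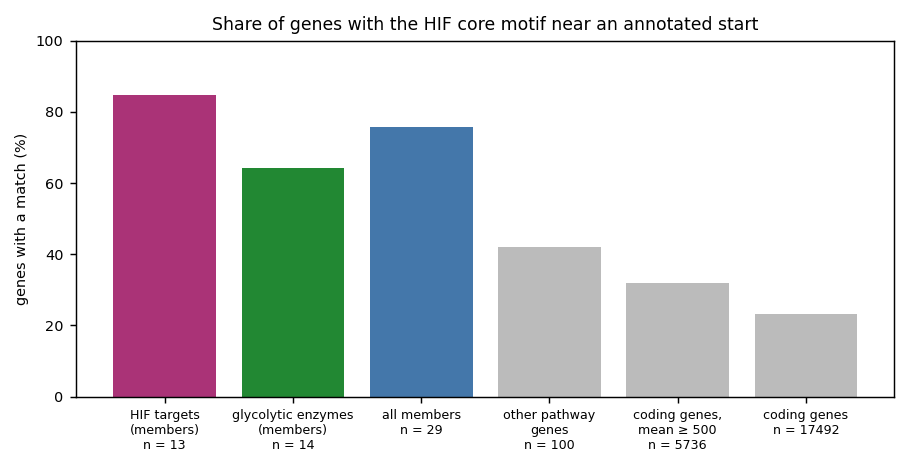
Share of genes (%, vertical axis) with ACGTG on either strand between 250 bases before and 50 bases after an annotated start, for the HIF targets, the glycolytic enzymes, all 29 genes of the set with a window, and 3 comparison groups (n under each bar). The HIF targets stand at 84.6%, against 32.0% of protein-coding genes with a mean of at least 500.

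Glycolytic transcripts were among the most abundant in the knockout cells. The 14 enzymes took 3.28% of all counts in replicate 1 (95% Wilson interval 3.27 to 3.28%) and 3.00% in replicate 2 (3.00 to 3.01%), and such intervals cover counting error only. Of the 31 genes, 8 were among the 100 most abundant genes by mean normalized count and 7 per kilobase of annotated exon. Gapdh ranked 2, Pkm 5, Ldha 6 and Eno1 8 by mean normalized count.

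Levels between genes are compared per kilobase. Gapdh, which makes the first NADH of the pathway, led with 34646 ± 3658 normalized counts per kilobase (SD, n = 2). Ldha followed with 28517 ± 818. Pkm (pyruvate kinase) had 20170 ± 1679, Pgk1 had 19644 ± 1387 and Aldoa (aldolase) had 19189 ± 2185 normalized counts per kilobase. These 3 neighbours differed by less than their SDs, which hold the step between replicates. Within each replicate Pkm was highest of the 3, and Pgk1 and Aldoa changed order between replicates. Eno1 had 15931 ± 1004 and Tpi1, which interconverts the trioses, had 15446 ± 1125, also within their SDs. Eno1 was above Tpi1 in each replicate, at 16641 over 16241 in replicate 1 and 15220.7 over 14650.5 in replicate 2. Pgam1, the mutase between Pgk1 and Eno1, was lower at 4532 ± 322 normalized counts per kilobase. The enzymes before aldolase were lower again, at 3333 ± 272 for Gpi1 (glucose phosphate isomerase), 1639 ± 96.3 for Hk1, 1467 ± 76.9 for Hk2, 1405 ± 73.6 for Pfkp and 1198 ± 23.8 for Pfkl. Per kilobase of annotated exon, every enzyme from aldolase to lactate dehydrogenase except Aldoc thus stood above every enzyme before it. By mean normalized count Pgam1 (8982) stood below Gpi1 (21506), Pfkp (18824) and Hk1 (13986.5), so its place depends on the lengths.

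**Figure D2:**
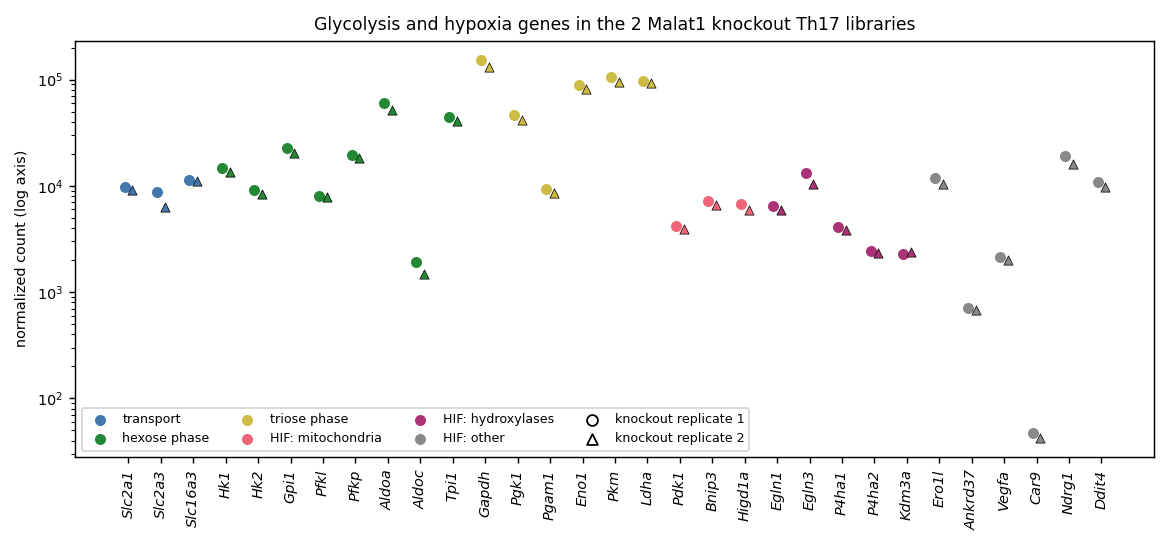
Normalized counts (log axis) of the 31 genes in Malat1 knockout replicate 1 (circles) and replicate 2 (triangles), coloured by role. Values run from 42.5 for Car9 to 153882 for Gapdh, and Kdm3a is the 1 gene whose triangle stands above its circle.

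Several steps rested on 1 isozyme and others on more. Per kilobase, Aldoa made up 97.2% and 97.5% of the aldolase transcripts in replicates 1 and 2, Eno1 97.8% and 97.6% of the enolases, Ldha 97.8% and 97.9% of the lactate dehydrogenases, and Pkm all of the pyruvate kinase. Hexokinase was shared by Hk1 (52.4% and 52.3%) and Hk2 (46.7% and 47.0%), a split that moved to 67.0% and 66.9% for Hk1 when the longest annotated transcript was taken as the length. Phosphofructokinase, the committing step, was shared by Pfkp (48.0% and 47.7%), Pfkl (40.0% and 41.7%) and the muscle type Pfkm (12.03% and 10.6%). With the longest transcript as the length, Pfkp had 46.4% and 45.9% and Pfkl 44.9% and 46.4%, so the order of that pair was reversed in replicate 2. Among glucose importers of the set, Slc2a1 made up 69.9% and 74.8% and Slc2a3 the remainder. Slc16a3 made up 76.9% and 75.2% of the lactate carriers, and Slc16a1 nearly all of the remainder.

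The HIF targets spread over a wider range. Egln3, a prolyl hydroxylase that marks Hif1a, made up 69.3% and 66.3% of its family per kilobase in replicates 1 and 2, and Egln1, the main such enzyme in most cells, 24.9% and 27.7%. Pdk1, a kinase that inhibits pyruvate dehydrogenase, made up 43.9% and 41.9% of the pyruvate dehydrogenase kinases, and Pdk3 54.1% and 56.2%. With the longest transcript as the length the order of that pair was reversed in replicate 1, with 49.1% for Pdk1 and 48.8% for Pdk3. Car9, a carbonic anhydrase used as a hypoxia marker, was lowest of the 31 genes, with 49 and 56 raw counts.

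In the knockout libraries, 30 of the 31 genes were lower in replicate 2 than in replicate 1 by normalized count. Slc2a3, a neuronal-type glucose importer also found in lymphocytes, had 8694 normalized counts in replicate 1 and 6382 in replicate 2. Aldoc had 1939 in replicate 1 and 1469 in replicate 2, and Egln3 had 13227 in replicate 1 and 10442 in replicate 2. These 3 had the widest gaps, with log2 ratios of replicate 2 over replicate 1 of -0.45, -0.40 and -0.34. The exception was the histone demethylase Kdm3a, with 2303 and 2367 normalized counts in replicates 1 and 2, against 2270 implied for wild type. Slc16a3 was nearly level, at 11351 and 11191.

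The median log2 ratio of replicate 2 over replicate 1 was -0.13 over the 30 genes with a knockout mean of at least 50, of which 29 were lower in replicate 2. Over all 10540 genes with such a mean the median was -0.00296 and 50.7% were lower in replicate 2. Among genes with a mean of at least 5000 over all libraries the median was -0.04 and 62.7% were lower. The other genes of glucose metabolism and the HIF pathway had 52 of 97 lower in replicate 2, with a median of -0.02. Of the T cell markers, 11 of 15 were lower, with a median of -0.07. With 1 group of 2 libraries there is no test of this difference, and fewer cells of a type and less RNA per cell cannot be told apart in bulk RNA.

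**Figure D3:**
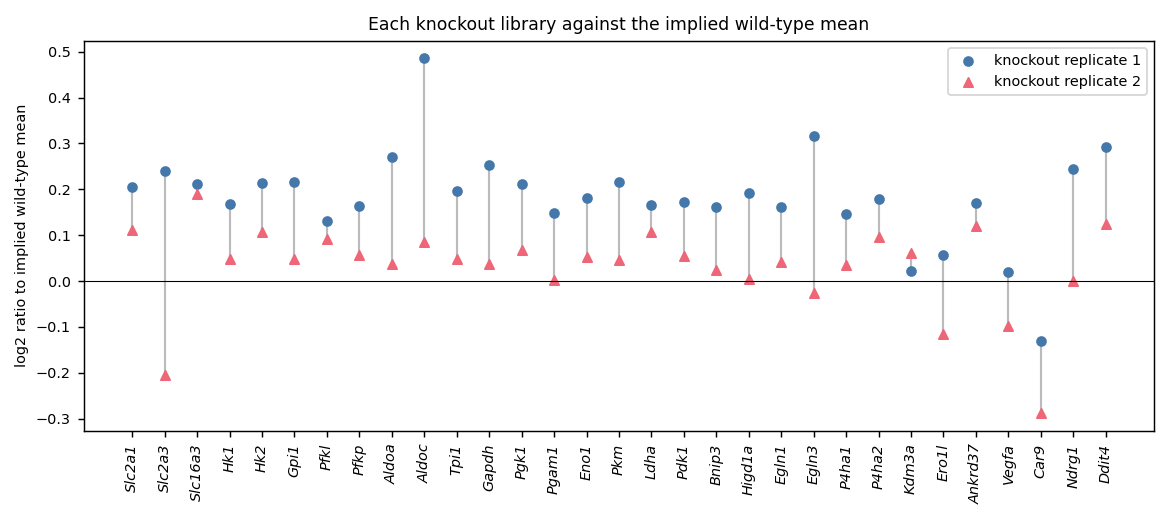
Log2 ratio of each knockout library to the implied wild-type mean (vertical axis) for the 31 genes, with replicate 1 as circles, replicate 2 as triangles and a line joining each pair. Replicate 1 lies above 0 for every gene except Car9, and replicate 2 lies lower in all genes except Kdm3a.

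The deposited comparison asked which genes differ between Malat1 knockout and wild-type Th17 cells. None of the 31 genes passed an adjusted p of 0.05 by DESeq2 in the authors' deposited table, where 0.159% of 14481 genes with an adjusted p did. Each of the 31 had an adjusted p of 0.999988 there (DESeq2). Before adjustment, at p under 0.05, the authors' deposited table had 5 of the 31 genes higher in the knockout, against 0.391% of all genes, and 0 lower, against 1.72%. The background is higher among abundant genes: in the authors' deposited table, of the 758 genes with a mean of at least 5000, 6.6% were higher and 5.01% lower at that p, and the 5 genes are among the 23 of the set with such a mean. Fold changes were small and mostly above 0: 28 of 31 were positive in the authors' deposited table, where their log2 fold changes ran from -0.20 to 0.29 with a median of 0.12. Over all genes there 44.1% were positive, with a median of -0.03, and among the 758 genes with a mean of at least 5000 it was 61.2%, with a median of 0.03.

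Gene positions are those of GENCODE M21 on GRCm38. Gapdh (chr6:125161715-125166467, minus strand) had 153882 and 132500 normalized counts in the knockout replicates, against an implied wild-type mean of 129129. Its log2 fold change in the authors' deposited table was 0.15 (SE 0.063, unadjusted p 0.0194), which is 1.11-fold with a 95% interval of 1.02 to 1.21. Aldoa (chr7:126795234-126800751, minus strand) had 60358 and 51362 in the knockout replicates, against 50041 implied for wild type. Both knockout values of these genes lay above the implied mean, replicate 2 by little.

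Ldha (chr7:46841475-46855627, plus strand) had 96305 and 92476 normalized counts in the knockout replicates, against 85894 implied for wild type. Pkm (chr9:59656368-59679375, plus strand) had 106805 and 94933 in the knockout, against 91932 implied for wild type. Eno1 (chr4:150236721-150248879, plus strand) had 89512 and 81872 in the knockout, against 78920 implied for wild type. Together with Gapdh and Aldoa these are the 5 genes past p 0.05 before adjustment in the authors' deposited table, where Aldoa had 0.16 (SE 0.070), Ldha 0.14 (SE 0.064), Pkm 0.13 (SE 0.062) and Eno1 0.12 (SE 0.058) as log2 fold changes. All 5 catalyse steps from aldolase onwards, and they were also the 5 most abundant of the 31 genes by mean normalized count. The enzymes before aldolase were less abundant, with larger SEs in the authors' deposited table, from 0.073 for Gpi1 to 0.10 for Pfkl. Their log2 fold changes there ran from 0.11 for Hk1 to 0.16 for Hk2.

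The other enzymes had log2 fold changes of similar size. Pgk1 had 46282 and 41882 normalized counts in the knockout replicates, against 39954 implied for wild type, and Tpi1 had 44712 and 40333 in the knockout, against 38993 implied for wild type. Of the first steps, Gpi1 had 22748 and 20265 in the knockout, against 19591 implied for wild type. Hk1 had 14568 and 13405 in the knockout, against 12971 implied for wild type, and Hk2 had 9083 and 8433 in the knockout, against 7832 implied for wild type. In each of these genes both knockout libraries lay above the implied mean. Pfkp had 19522 and 18126 in the knockout, against 17422.5 implied for wild type, and Pfkl had 8109.5 and 7884 in the knockout, against 7404 implied for wild type. Pgam1 had 9433 and 8530 in the knockout, against 8510 implied for wild type, so that its replicate 2 was level with it. All 14 enzymes had positive log2 fold changes in the authors' deposited table, with a median of 0.13, from 0.08 (SE 0.10) for Pgam1 to 0.29 (SE 0.25) for Aldoc. Hk2 had 0.16 (SE 0.096), Hk1 0.11 (SE 0.082), Pfkp 0.12 (SE 0.089) and Pfkl 0.11 (SE 0.10) in the authors' deposited table.

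Transport showed 1 gene with little gap between libraries. Slc16a3, the lactate exporter MCT4 (chr11:120948480-120960868, plus strand), had 11351 and 11191 normalized counts in the knockout replicates, against 9809 implied for wild type, and a log2 fold change of 0.20 (SE 0.10, unadjusted p 0.0515) in the authors' deposited table. Slc2a1 (GLUT1), the main glucose importer of activated T cells, had 9793 and 9178 in the knockout, against 8490 implied for wild type, and 0.16 (SE 0.10) in the authors' deposited table. Slc2a3 had replicate 1 above and replicate 2 below the implied wild-type mean of 7359, and 0.02 (SE 0.15) in the authors' deposited table.

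**Figure D4:**
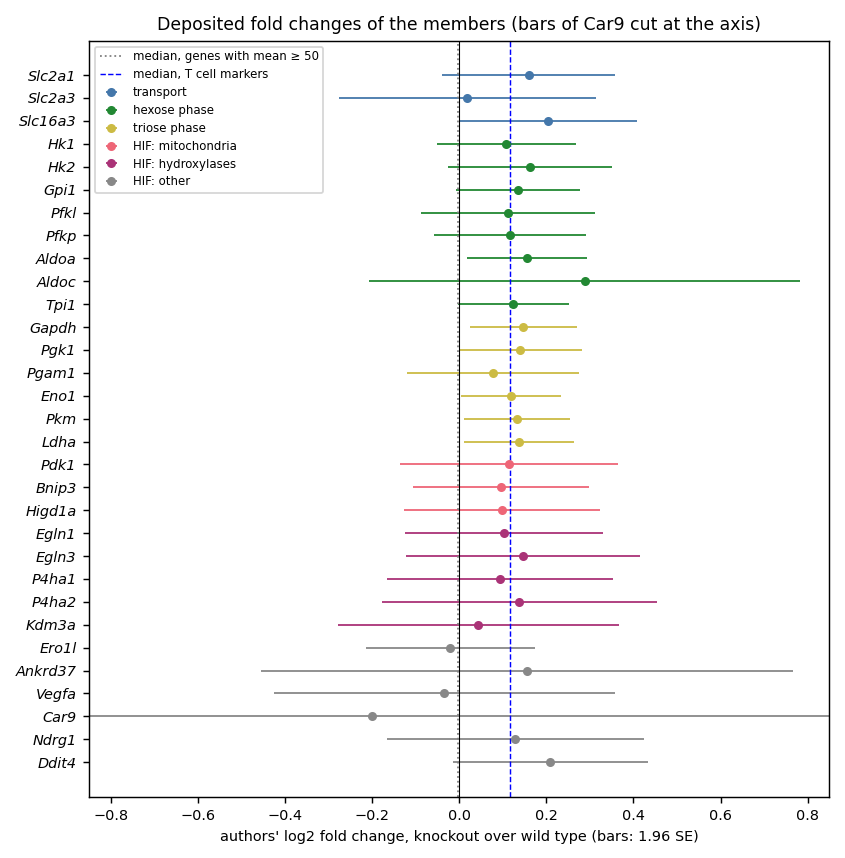
Log2 fold change of knockout over wild type in the authors' deposited table (horizontal axis) with bars for the 95% interval from its standard error, by gene and role. The dotted line is the median of genes with a mean of at least 50 and the dashed line the median of the T cell markers (0.12); 28 of 31 points lie right of 0.

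Among the HIF targets, 11 of 14 had positive log2 fold changes in the authors' deposited table, with a median of 0.10, and none had an unadjusted p under 0.05. Ddit4, an inhibitor of mTORC1 induced by stress and hypoxia, had 10979 and 9766 normalized counts in the knockout replicates, against 8964 implied for wild type. Its log2 fold change in the authors' deposited table was 0.21 (SE 0.11, unadjusted p 0.0676). Egln3 lay above the implied wild-type mean of 10625 in knockout replicate 1 and below it in replicate 2.

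Pdk1 had 4216 and 3884 normalized counts in the knockout replicates, against 3741 implied for wild type. Bnip3 had 7257 and 6593 in the knockout, against 6487 implied for wild type, and Higd1a, a small mitochondrial protein, had 6741 and 5916 in the knockout, against 5901 implied for wild type. All 3 mitochondrial members were above the implied mean in both libraries, each by less than 1 SD in replicate 2. Egln1 had 6405 and 5894 in the knockout, against 5727 implied for wild type, P4ha1 had 4136 and 3834, against 3740 implied for wild type, and P4ha2 had 2457 and 2319, against 2171 implied for wild type. Of the remainder, Ndrg1, a stress-induced protein, had 19130 and 16152 in the knockout, against 16143 implied for wild type, and Ankrd37 had 703 and 679 in the knockout, against 625 implied for wild type.

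The 3 negative log2 fold changes in the authors' deposited table were those of Ero1l, an oxidase of the endoplasmic reticulum (-0.02, SE 0.099), Vegfa, the angiogenic growth factor (-0.03, SE 0.20), and Car9 (-0.20, SE 0.99). Ero1l had 11738 and 10405 normalized counts in the knockout replicates, against 11276 implied for wild type. Vegfa had 2156 and 1987 in the knockout, against 2127 implied for wild type. The knockout libraries of both genes lie on either side of the implied mean.

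The errors limit what could have been seen. In 14 of the 31 genes the SE exceeded the size of the log2 fold change in the authors' deposited table. Among the genes of the set with a mean of at least 5000, the 95% intervals of the fold reached from 0.825 to 1.35. The size of the ratio to the implied wild-type mean depended on the knockout library. Its median log2 value over the 31 genes was 0.18 in replicate 1 and 0.05 in replicate 2, so without replicate 1 the median was 0.05. The implied mean pools the wild-type libraries, so a shift shared by replicates of both genotypes was not tested.

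**Figure D5:**
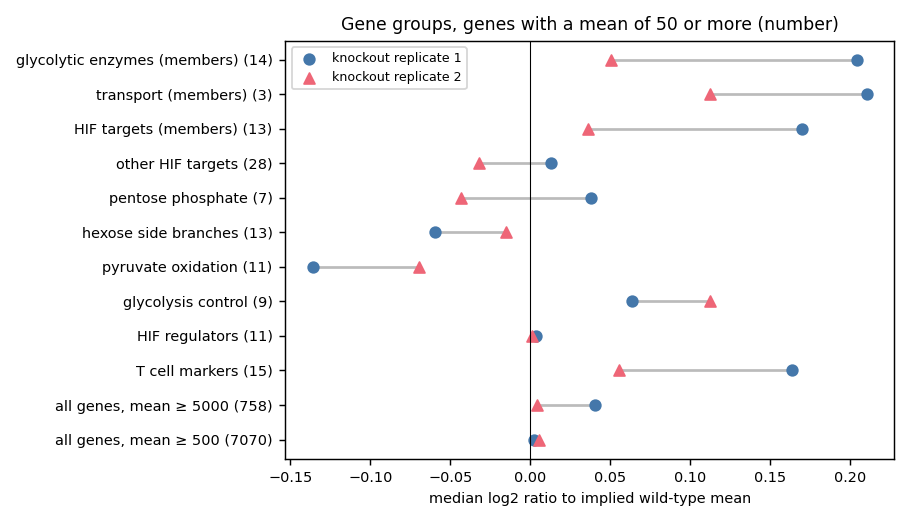
Median log2 ratio to the implied wild-type mean (horizontal axis) in knockout replicate 1 (circles) and replicate 2 (triangles) for gene groups with a mean of at least 50, number of genes in brackets. The enzymes, transporters and HIF targets of the set lie to the right in replicate 1, as the T cell markers do, and nearer 0 in replicate 2.

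T cell markers had a median close to that of the 31 genes. Of 15 markers in the table, 14 had positive log2 fold changes in the authors' deposited table, with a median of 0.12, and their median log2 ratio to the implied wild-type mean was 0.16 in replicate 1 and 0.06 in replicate 2. Less the T cell median, the 31 genes had a median of 0.0068, with 17 above 0, in the authors' deposited table. Markers of other tissues were on the wild-type side: 20 kidney tubule genes summed to 193 and 279 normalized counts in the knockout replicates, against 38333 implied for wild type. All 20 had negative log2 fold changes in the authors' deposited table, 5 were at 0 counts in both knockout libraries, and Gpx3 and Kap led the implied wild-type sum with 12860 and 11576. Fibroblast and muscle genes, 7 in number, summed to 57.1 and 47.8 in the knockout replicates, against 15155 implied for wild type. The part of these transcripts in the fold changes of the glycolytic genes was not tested.

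An enzyme and a transporter known from kidney and liver were also on the wild-type side. Fbp1, a gluconeogenic phosphatase, had 0 counts in both knockout libraries, against 503 implied for wild type. A count of 3, the limit a count of 0 allows, is worth 2.90 normalized counts in replicate 1 and 2.28 in replicate 2. Slc2a2, the liver-type glucose importer, had 5.80 and 8.35 normalized counts in the knockout, against 131 implied for wild type, with a log2 fold change of -2.77 (SE 1.41, unadjusted p 0.0497) in the authors' deposited table.

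The wider pathway had a median near that of all genes. Of 122 further names, 121 were in the table, and 53 had positive log2 fold changes there. In the authors' deposited table their median was -0.03, and 0 had an adjusted p under 0.05 (DESeq2), against 0.159% of genes with an adjusted p. At an unadjusted p under 0.05 (DESeq2), 1 was higher and 3 were lower there, against 0.391% and 1.72% of all genes. The mitochondrial pyruvate carriers, pyruvate dehydrogenase subunits and their regulators had 2 of 12 positive log2 fold changes in the authors' deposited table (median -0.10), genes that control glycolytic flux 6 of 10 (0.09), those of the pentose phosphate pathway 4 of 7 (0.02), other HIF targets 18 of 33 (0.01), HIF regulators 6 of 12 (-0.01), glycogen and hexose side branches 5 of 13 (-0.04), transcription and signalling factors of glucose metabolism 5 of 11 (-0.03), and other isozymes and transporters 7 of 23 (-0.04).

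The HIF subunits and Vhl were also read. Hif1a had 17560 and 16617 normalized counts in the knockout replicates, against 18258 implied for wild type, and a log2 fold change of -0.09 (SE 0.079, unadjusted p 0.230) in the authors' deposited table. Arnt had 0.02 (SE 0.18) and Vhl 0.11 (SE 0.24) in the authors' deposited table. Epas1, the HIF-2 alpha subunit, had 430 and 404 normalized counts in the knockout, against 919 implied for wild type, with -1.09 (SE 0.38, unadjusted p 0.00371) in the authors' deposited table. Fam13a, with 0 and 1 counts in the knockout, was implied at 43.7 normalized counts for wild type and had an unadjusted p of 0.00573 in the authors' deposited table. Kidney, fibroblast and muscle transcripts were on the wild-type side, and their part in the values of Epas1 and Fam13a was not tested.

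Bhlhe40, a HIF-induced transcriptional repressor used by Th17 cells, was the 1 higher gene. It had 34613 and 32042 normalized counts in the knockout, against 30092 implied for wild type, and 0.15 (SE 0.070, unadjusted p 0.0338, DESeq2) in the authors' deposited table. Among genes with a mean of at least 5000, 6.6% were higher there at an unadjusted p under 0.05. Txnip, a glucose-induced brake on glucose uptake, had 7814 and 6589 in the knockout, against 6189 implied for wild type, and 0.21 (SE 0.13) in the authors' deposited table.

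Counting limits apply to a few genes. Exons of Pfkp overlap those of Pitrm1 on the opposite strand over 748 bases (5.58% of its exon bases), and those of Ankrd37 overlap Lrp2bp over 349 bases (22.7%) and Ufsp2 over 57 bases (3.70%). Lrp2bp averaged 4.49 normalized counts in the knockout, and Ufsp2 averaged 1829, above the 691 of Ankrd37. Gapdh, Tpi1 and Aldoa overlap Iffo1, Spsb2 and Fam57b, also on the opposite strand, over 68, 34 and 25 bases. The strand setting of the counting is not given in the sources used here, so such reads cannot be assigned. Glycolytic genes also have processed copies, 10 of them named as pseudogenes of these genes in the annotation and 0 in the table, and how reads with several matches were counted is not given in the sources used here. Eno1b, a near copy of Eno1, had 137 counts over both knockout libraries.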

How the data were processed

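RNA was measured in 2 Malat1 knockout Th17 libraries, grouped by their titles. The members and lists were chosen with earlier results of these data known. The submitters' processing notes name the mm10 build, the aligner STAR 2.6.1a, the counter featureCounts and DESeq2 1.18.1. The annotation, strand setting and factors of the model were not stated there. The authors' label of the comparison calls it multifactor, so its fold changes and p-values may be adjusted for a factor besides genotype. Which factor that would be is not given in the sources used here. The authors deposited raw counts per gene. They also deposited normalized counts, a signal of counts divided by a size factor (1.03 and 1.32), and their mean over 4 libraries. The log2 fold changes and standard errors, the Wald score and the p-values and adjusted p-values are those the authors deposited; DESeq2 gave 1904 genes no adjusted p. The 4 wild-type per-library columns belong to another series and were not used, so no new test between genotypes was run, and no paired analysis was possible.

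Each gene of the set was named, by role, and of the wider list the 4 HIF regulators and those with the smallest p. Lengths, GC content and coordinates came from GENCODE M21 (GRCm38), where 15943 of 16385 identifiers matched exactly. Promoter windows came from RefSeq. Medians, ratios, shares and Wilson intervals were computed in Python 3.11.15 with pandas 2.3.3 and scipy 1.17.1. The Benjamini-Hochberg adjustment, the trends and the implied mean were tested on simulated data, and the other steps were not. Alternatives were other call thresholds, minimum means, trends on mean and GC content, and each knockout library left out. A T cell marker scale, CPM and transcript length were added after seeing the data.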

Additional observations from a re-analysis of the deposited data

How the results depend on the processing

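The count of 0 genes called did not change at an adjusted p under 0.1 or with Benjamini-Hochberg over every gene (DESeq2 p-values), and at an unadjusted p under 0.05 it was 5. The median log2 fold change of 0.12 ranged from 0.09 less the trend on mean to 0.13 less the median of genes with a mean of at least 50, and was 0.11 less the trend on GC content. Leaving out each knockout library gave medians of 0.05 to 0.18, taken as the log2 ratio of the remaining knockout library to the implied wild-type mean. The comparison was not refitted, and no wild-type library was left out. Less the median of the T cell markers, a scale chosen after seeing the data, the median log2 fold change was 0.0068, and the cause was not tested. Signs changed for Slc2a3 with the trend on mean, Ero1l with the trend on GC content, Slc2a3 and Egln3 without replicate 1, Ero1l and Vegfa without replicate 2, and 11 genes on the T cell scale. The count of 30 of 31 genes lower in replicate 2 was 29 in CPM and 26 on the T cell scale. Less the trend on GC content it was 27 of the 30 genes with a knockout mean of at least 50, of which 29 were lower without that step. These scales were all chosen after seeing the data. No paired analysis was possible because the samples hold 1 group only.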

Other observations

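The Th17 genes were spread to both sides between the knockout replicates: 4 of 10 were lower in replicate 2, with a median log2 ratio of replicate 2 over replicate 1 of 0.02, against 30 of the 31 glycolysis and hypoxia genes. Their median log2 ratio to the implied wild-type mean was 0.13 in replicate 1 and 0.24 in replicate 2. Il17a had 26196 normalized counts in replicate 1 and 28631 in replicate 2, against 24826 implied for wild type. The difference between these gene groups was not tested.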
